A study of Mus musculus with 6 samples.

Results

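The genes described here are 40 mouse genes of alcohol, aldehyde and retinoid metabolism, taken from a fixed list of symbols and read out of the 27179 genes counted in every liver library. They comprise 4 alcohol dehydrogenases, 4 ALDH1A enzymes, 6 mitochondrial and 5 other aldehyde dehydrogenases, 4 genes of retinoid transport, storage and binding, 2 carotenoid cleavage enzymes, 13 short-chain dehydrogenases and related enzymes, and 2 enzymes of retinoic acid clearance. All 40 were found in the files by symbol. The series profiled RNA from flash-frozen livers of C57BL/6 mice in 2 groups, 3 wild-type livers and 3 livers deficient in Mettl3, the methyltransferase that places N6-methyladenosine on messenger RNA. Both groups have the same strain and tissue. The sources used here do not give age, sex, the allele or agent that made Mettl3 deficient, or whether each liver came from its own animal. The p-values therefore cover only the variation among the 6 samples, which may be technical in part. In whole liver, fewer cells of a type and less RNA per cell cannot be told apart.

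Alcohols such as ethanol and retinol are oxidised in the liver to aldehydes by alcohol dehydrogenases and short-chain retinol dehydrogenases, and the aldehydes are oxidised to acids by aldehyde dehydrogenases. Ethanol thereby becomes acetaldehyde and then acetate, while retinol becomes retinaldehyde and then retinoic acid, the ligand of the retinoic acid receptors. The liver also stores most of the body's vitamin A as retinyl esters, in stellate cells, and hepatocytes release retinol into blood bound to retinol-binding protein. CYP26 enzymes hydroxylate retinoic acid for removal.

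The promoters of 4 genes are shown because they belong to genes whose values matter most below. Adh7, Rbp4 and Rdh16 had the smallest p-values among the called genes of the alcohol dehydrogenase, transport and retinol dehydrogenase groups, and Cyp26a1 was added after its values were seen. Each sequence is a RefSeq promoter of GRCm38.p6, 250 bases before to 50 bases after an annotated start, printed 5′ to 3′ on the gene's strand. Rbp4 has a further RefSeq promoter, chr19:38125272-38125571, which held no match to the letters searched and is not printed. Capitals mark any match, on either strand, to the letters searched, which were TATAAA, the nuclear receptor half-sites AGGTCA and AGTTCA, direct repeats of those half-sites with a gap of 5 or 2 bases, the HNF4 site CAAAGTCCA, the HNF1 half-site GTTAAT and the C/EBP site TTGCGCAA.
Adh7, chr3:138217523-138217822, plus strand: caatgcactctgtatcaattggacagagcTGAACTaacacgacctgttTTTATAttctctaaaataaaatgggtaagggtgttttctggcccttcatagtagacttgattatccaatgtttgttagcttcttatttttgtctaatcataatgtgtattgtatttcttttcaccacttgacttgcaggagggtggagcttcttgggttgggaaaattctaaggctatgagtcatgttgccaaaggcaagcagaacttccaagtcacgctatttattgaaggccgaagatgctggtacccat
Rbp4, chr19:38124762-38125061, minus strand: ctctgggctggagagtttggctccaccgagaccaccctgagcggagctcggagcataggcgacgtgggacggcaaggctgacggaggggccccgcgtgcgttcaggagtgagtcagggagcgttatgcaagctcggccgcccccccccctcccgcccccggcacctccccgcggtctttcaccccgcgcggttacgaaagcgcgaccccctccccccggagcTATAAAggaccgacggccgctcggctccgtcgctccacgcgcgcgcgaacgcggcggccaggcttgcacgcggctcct
Rdh16, chr10:127800903-127801202, plus strand: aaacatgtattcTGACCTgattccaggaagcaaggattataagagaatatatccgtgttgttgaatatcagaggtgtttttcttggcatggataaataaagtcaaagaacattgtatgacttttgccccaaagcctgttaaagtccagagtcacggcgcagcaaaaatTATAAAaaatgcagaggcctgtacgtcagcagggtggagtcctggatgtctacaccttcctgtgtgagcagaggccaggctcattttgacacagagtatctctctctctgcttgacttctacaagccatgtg
Cyp26a1, chr19:37697558-37697857, plus strand: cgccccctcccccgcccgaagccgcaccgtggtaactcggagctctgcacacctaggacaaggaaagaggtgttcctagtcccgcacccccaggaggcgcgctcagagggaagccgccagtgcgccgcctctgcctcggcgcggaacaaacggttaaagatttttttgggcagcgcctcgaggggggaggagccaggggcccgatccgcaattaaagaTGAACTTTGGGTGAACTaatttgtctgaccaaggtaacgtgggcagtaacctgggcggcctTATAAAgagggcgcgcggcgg
The longest run of capitals is in Cyp26a1, where a direct repeat of AGTTCA with a gap of 5 bases lay on the minus strand at -32 to -16 from the start (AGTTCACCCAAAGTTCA). A repeat of this kind was present in 13 of 32851 RefSeq promoters (0.0396%) and in 1 of the 46 promoters matched to 35 of the 40 genes. A repeat with a gap of 2 bases was present in none of the 46. A lone half-site, which the repeats contain, occurred in 32.6% of the 46 promoters and in 27.7% of all promoters. TATAAA occurred in 23.9% and 13.6%, in Rbp4 at -28 to -23, in Rdh16 at -82 to -77, in Cyp26a1 at 30 to 35 and in Adh7 on the minus strand at -202 to -197. The HNF1 half-site was in 6.52% and 7.1%. The HNF4 and C/EBP sites were in none of the 46 and in 0.475% and 0.183% of all promoters.

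Depth was 31960205 to 36025772 counts per library. Mettl3 itself was at 13.4, 14.3 and 12.1 CPM (TMM-normalised counts scaled to a common library size) in wild-type libraries and 5.96, 6.6 and 4.94 in Mettl3-deficient libraries, a log2 fold change of -1.18 ± 0.20 (SE; adjusted p = 0.00797), and the counts span the whole gene. Transcripts of 4 Y-linked genes were counted in 3 libraries, wild type replicate 1 and Mettl3-deficient replicates 1 and 2, and had 0 counts in the other 3. Wild type replicate 1 also stood apart within its group, with a chi-square per degree of freedom of 309.1 and 303.1 against the other wild-type libraries, which gave 17.09 against each other. Pairs of Mettl3-deficient libraries gave 129.7 (1 and 2), 90.37 (1 and 3) and 245.8 (2 and 3). Wild type replicates 2 and 3 were thus the closest pair within either group. The summed level of 7 hepatocyte markers was 138409 to 170936 CPM in wild type and 45388 to 74517 CPM in Mettl3-deficient livers, most of it from Alb. Without Alb it was 29770 to 30905 CPM in wild type and 13327 to 21188 CPM in Mettl3-deficient livers. Of the 7 markers, 3 (Alb, Asgr1 and Hnf4a) passed the test, all lower (42.9%, against 10.5% of all tested genes called lower). The part of this difference in the results on hepatocyte enzymes below was not tested.

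Of the 40 genes, 38 had enough counts to be tested, and 13 of them (34.2%) passed an adjusted p of 0.05, where 23.8% of all 14380 tested genes did. The 9 called lower in Mettl3-deficient livers were Adh1, Adh5, Adh7, Aldh6a1, Aldh16a1, Rbp4, Bco2, Rdh7 and Rdh16. They are 23.7% of the 38, against 10.5% of all tested genes called lower. The 4 called higher were Aldh18a1, Aldh1b1, Aldh1a7 and Rdh14, which are 10.5% of the 38 against 13.3% of all tested genes called higher. The median log2 fold change of the 38 was -0.26 and that of all tested genes 0.01, with 13 above 0 and 25 below. Wild-type and Mettl3-deficient values did not overlap for 19 of the 38 (50%), including all 13 called genes, against 45.7% of all tested genes. The groups of the 13 called genes did not overlap, so their direction had to be the same among libraries with and without Y-linked counts. Opposite directions in those 2 sets were seen for 11 of the 38. The log2 ratios with and without Y-linked counts were -0.84 and 0.39 for Aldh1a1, 0.20 and -0.61 for Aldh1a3, -0.36 and 0.22 for Aldh5a1, -0.44 and 0.19 for Aldh8a1, -0.19 and 0.12 for Aldh9a1, and 1.11 and -0.16 for Bco1. They were 0.68 and -1.09 for Rdh9, 0.33 and -0.04 for Rdh10, -1.35 and 0.53 for Dhrs3, -0.34 and 0.05 for Dhrs4, and 3.57 and -1.93 for Cyp26b1. Without wild type replicate 1 the same 13 were called, and Aldh2, Rdh5, Rdh9 and Cyp26a1 were called lower as well, which made 4 higher and 13 lower. The counts fell to 0 higher and 3 lower without wild type replicate 2, to 0 and 4 without wild type replicate 3, to 1 and 3 without Mettl3-deficient replicate 1, and to 3 and 5 without Mettl3-deficient replicate 2. Calls over all genes then fell as well, from 3420 to between 1382 and 1859. Scaling by library size alone, without composition factors, raised the median of all genes to 0.49 and gave 9 higher and 4 lower of the 38, with a median of 0.20, which is still below that of all genes.

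**Figure D1:**
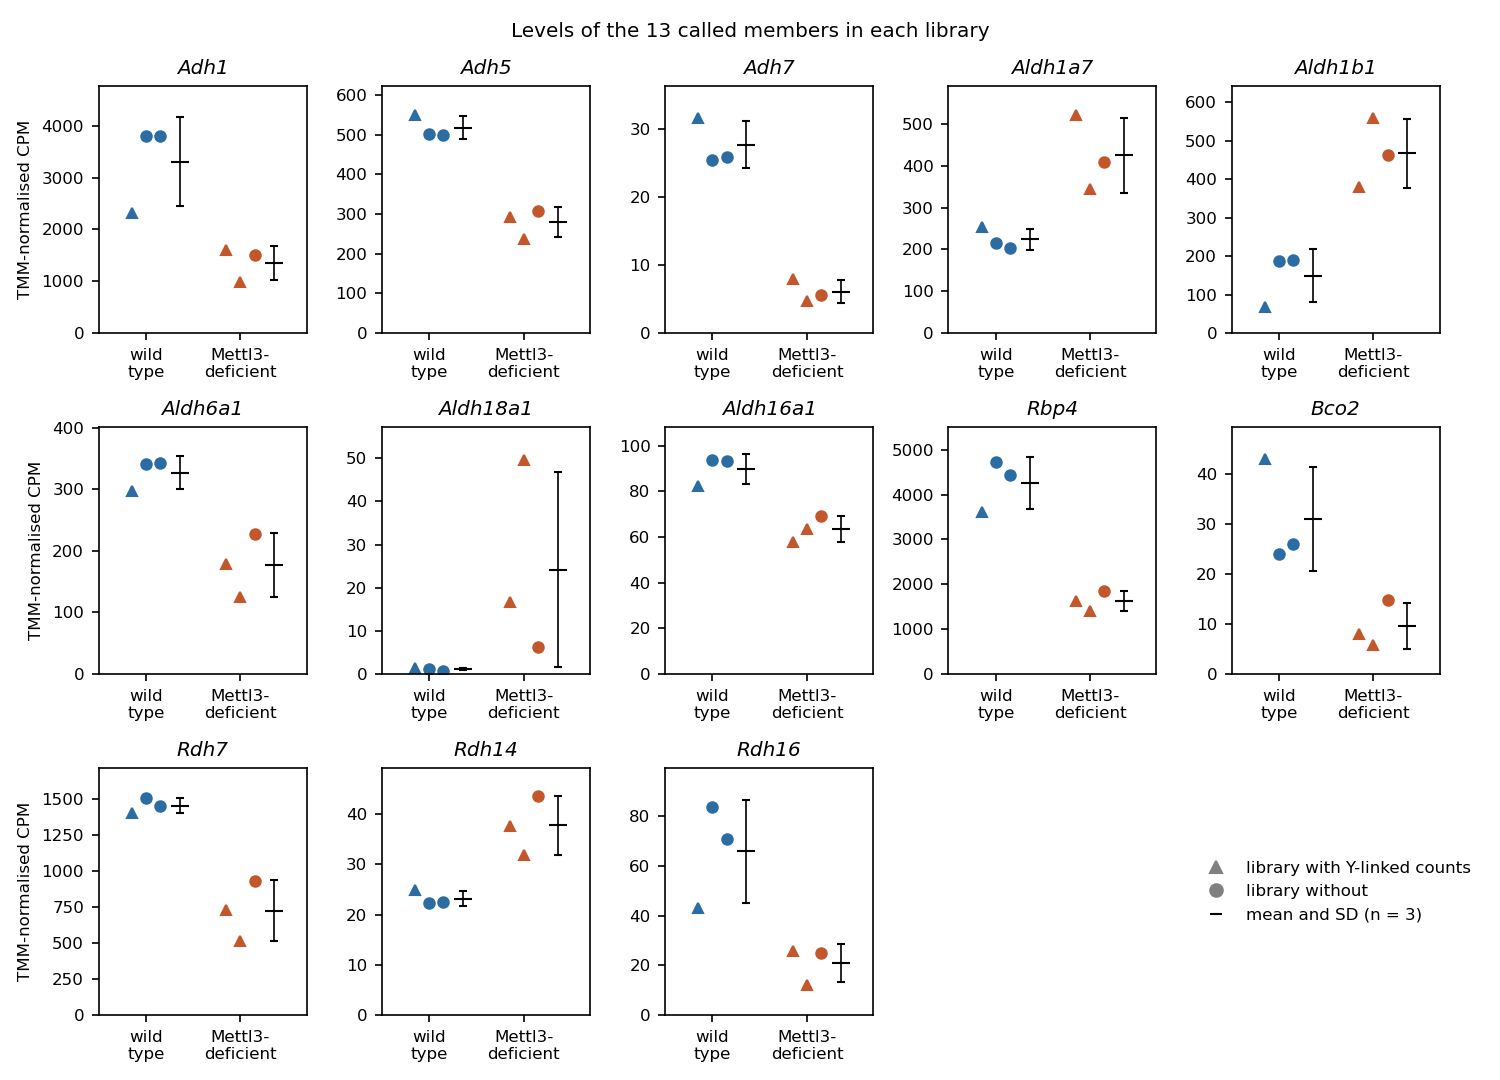
TMM-normalised CPM (y axis, linear from 0) of each called gene in the 3 wild-type and 3 Mettl3-deficient libraries, with the mean and SD beside each group (n = 3). Triangles are libraries with Y-linked counts and circles those without, and in each of the 13 panels every wild-type value lies on one side of every Mettl3-deficient value.

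All 4 alcohol dehydrogenase genes had lower means in Mettl3-deficient livers. Of the 4, 3 (Adh1, Adh5 and Adh7) passed the test as lower, 75% against 10.5% of all tested genes. The 4 genes lie together on chromosome 3 between 138198064 and 138455499, and their median log2 fold change was -1.30. Adh7 (Entrez 11529, chromosome 3, 138198064 to 138232042), the stomach-type enzyme that oxidises ethanol and retinol, had the smallest p of the 4. Its level was 31.6, 25.4 and 25.9 CPM in wild-type and 7.89, 4.69 and 5.6 CPM in Mettl3-deficient livers. The lowest wild-type library was thus far above the highest Mettl3-deficient one, and the mean fell from 27.7 ± 3.43 to 6.06 ± 1.65 CPM (SD, n = 3), 4.56-fold lower (log2 fold change -2.19 ± 0.23, adjusted p = 0.00182). Adh7 was the only called gene of the 13 that passed the test in each of the 12 alternatives tried.

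Adh1 (Entrez 11522, chromosome 3, 138277585 to 138290698), the main ethanol-oxidising enzyme of liver, was at 2309, 3806 and 3809 CPM in wild-type and 1596, 980 and 1497 CPM in Mettl3-deficient livers. Wild type replicate 1 was the lowest of its group and still above every Mettl3-deficient library. The mean fell from 3308 ± 865 to 1358 ± 331 CPM, 2.44-fold lower (log2 fold change -1.28 ± 0.32, adjusted p = 0.0268). Adh5 (Entrez 11532, chromosome 3, 138437200 to 138455499), the glutathione-dependent formaldehyde dehydrogenase, was at 551, 503 and 500 CPM against 294, 238 and 309 CPM. It fell from 518 ± 28.1 to 280 ± 37.1 CPM (log2 fold change -0.89 ± 0.21, adjusted p = 0.0216). Adh4, a liver enzyme active on larger alcohols and retinol, was not called. It was at 206 CPM in wild type replicate 1 but at 58.0 and 57.2 CPM in the other wild-type libraries, against 54.9, 23.1 and 50.2 CPM (log2 fold change -1.32 ± 0.58, adjusted p = 0.139). Most of the distance for Adh4 thus came from wild type replicate 1, with a log2 ratio of -2.40 among libraries with Y-linked counts and -0.20 among those without. The calls of Adh1 and Adh5 were lost when replicate 2 (adjusted p = 0.094 and 0.0728) or 3 (0.0915 and 0.0689) of the wild type was left out, or Mettl3-deficient replicate 1 (0.0737 and 0.0802). That of Adh1 was also lost without Mettl3-deficient replicate 2 (0.0529). Coding sequences of the 4 genes were 59.8% to 68.5% identical and shared no stretch of 50 bases. Adh1 and Adh7 each overlap an annotated antisense gene (Gm16559 and 0610031O16Rik), and whether counting used strand is not given in the sources used here.

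**Figure D2:**
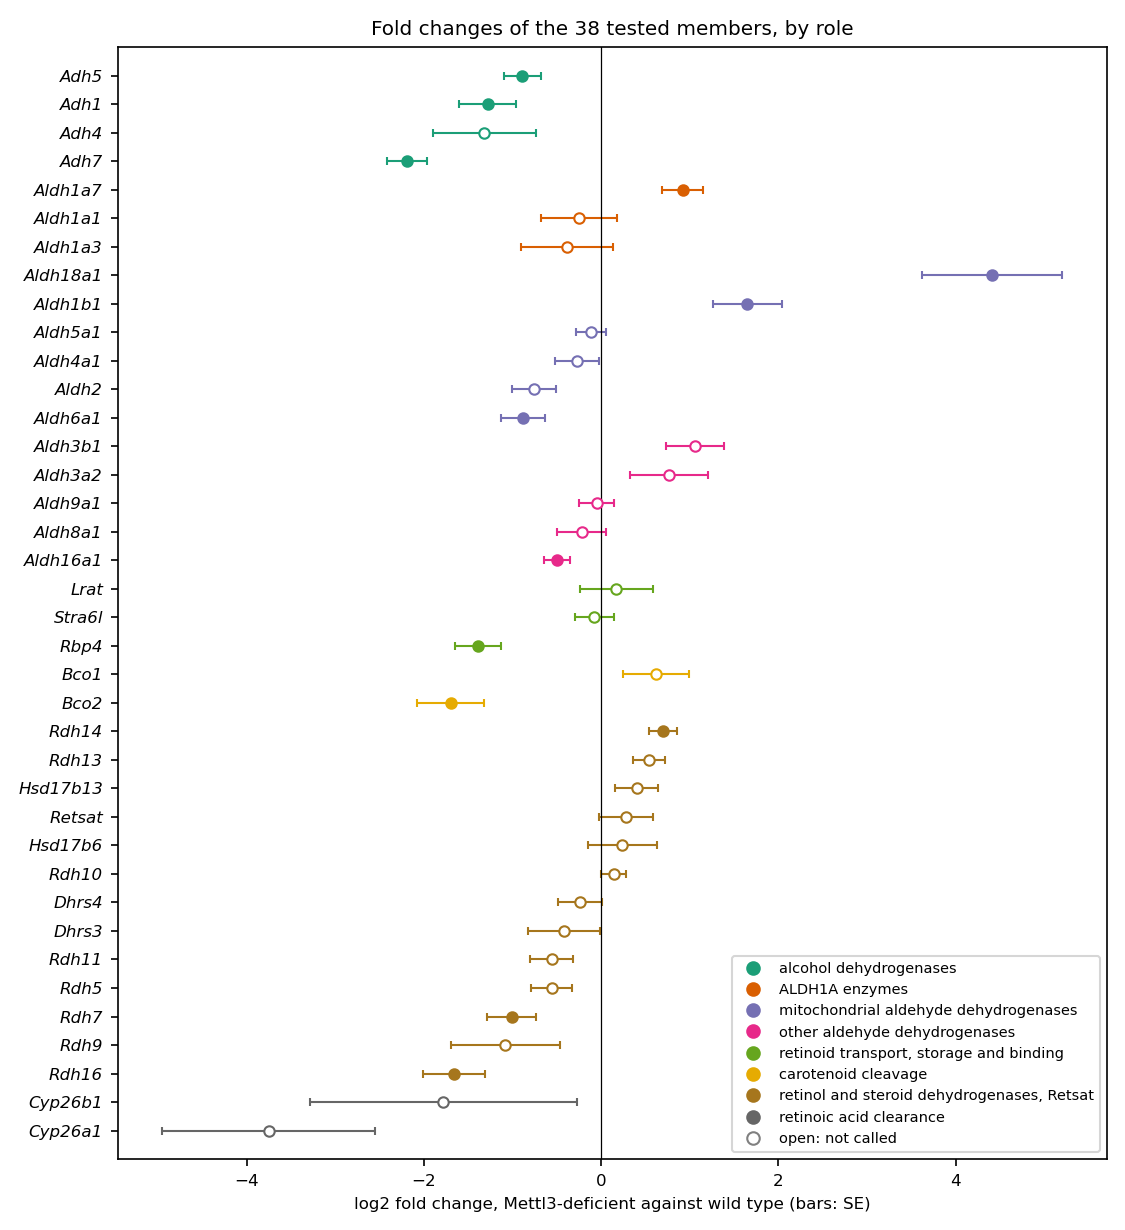
Log2 fold change (x axis) of the 38 tested genes, Mettl3-deficient against wild type, with SE as bars, grouped by role and coloured by it. Filled points passed the test, and the alcohol dehydrogenases all lie below 0 while the mitochondrial aldehyde dehydrogenases lie on both sides, from -0.88 to 4.41.

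Among the ALDH1A enzymes, 1 of 3 tested genes was called (33.3%, against 23.8% of all tested genes). Aldh1a7 (Entrez 26358, chromosome 19, 20692953 to 20727556), a rodent copy next to Aldh1a1, was at 253, 216 and 204 CPM in wild-type and 521, 345 and 409 CPM in Mettl3-deficient livers. Every Mettl3-deficient library was above every wild-type library, and the mean rose from 224 ± 25.3 to 425 ± 89.1 CPM, 1.89-fold (log2 fold change 0.92 ± 0.23, adjusted p = 0.0261). Aldh1a1, the main cytosolic retinaldehyde dehydrogenase of liver, was at 1332, 1036 and 922 CPM against 1101, 386 and 1279 CPM. Its groups overlapped, with Mettl3-deficient replicate 2 far below the rest, and it was not called (log2 fold change -0.25 ± 0.43, adjusted p = 0.696). The ratio of Aldh1a7 to Aldh1a1 counts was 0.19, 0.209 and 0.221 in wild-type and 0.473, 0.892 and 0.32 in Mettl3-deficient libraries, so those ranges did not overlap either. Both genes were 91.6% identical in coding sequence and shared 10.4% of their 50-base stretches, so reads may be split between them and both values are uncertain to that extent. The Aldh1a7 call was lost when replicate 2 (adjusted p = 0.0997) or 3 (0.105) of the wild type was left out, or Mettl3-deficient replicate 1 (0.102). Aldh1a3 was between 0.487 and 1.77 CPM in the 6 libraries and was not called (adjusted p = 0.605), and Aldh1a2, at 4 to 20 counts per library, was too low to be tested.

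The 6 mitochondrial aldehyde dehydrogenases moved in both directions, with 2 called higher and 1 lower and a median log2 fold change of -0.19. The called genes are 50% of the 6, against 23.8% of all tested genes. Aldh18a1 (Entrez 56454, chromosome 19, 40550257 to 40588463) encodes the synthase that starts proline and ornithine synthesis from glutamate. It was at 1.31, 1.27 and 0.813 CPM in wild-type livers and at 16.7, 49.6 and 6.26 CPM in Mettl3-deficient livers. The Mettl3-deficient libraries differed widely among themselves but all were above wild type, and the mean rose from 1.13 ± 0.278 to 24.2 ± 22.6 CPM, 21.2-fold (log2 fold change 4.41 ± 0.79, adjusted p = 0.0118). This was the largest fold change among the 38 tested genes. The call was lost without wild type replicate 2 (adjusted p = 0.0562) or wild type replicate 3 (0.0573), with log2 fold changes between 3.33 and 4.93 over the 12 alternatives.

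Aldh1b1 (Entrez 72535, chromosome 4, 45799022 to 45804608), a mitochondrial enzyme that oxidises acetaldehyde and retinaldehyde, was at 68.9, 188 and 189 CPM in wild-type and 380, 559 and 463 CPM in Mettl3-deficient livers. It rose from 149 ± 69 to 467 ± 89.6 CPM, 3.14-fold (log2 fold change 1.65 ± 0.39, adjusted p = 0.0228). Aldh2, the enzyme that clears acetaldehyde after ethanol, was at 1297, 1692 and 1605 CPM against 922, 740 and 1050 CPM. The groups of Aldh2 did not overlap, but it was not called (log2 fold change -0.76 ± 0.25, adjusted p = 0.0627). Aldh6a1 (Entrez 104776, chromosome 12, 84430717 to 84451024), which acts in valine breakdown, was at 297, 342 and 343 CPM in wild-type and 179, 125 and 228 CPM in Mettl3-deficient livers. It fell from 327 ± 26.5 to 177 ± 51.3 CPM (log2 fold change -0.88 ± 0.25, adjusted p = 0.0397). Aldh4a1, of proline breakdown, and Aldh5a1, of GABA breakdown, had overlapping groups, with log2 fold changes of -0.27 and -0.11 (adjusted p = 0.461 and 0.67). Leaving out replicate 2 or 3 of the wild type, or replicate 1 or 2 of the Mettl3-deficient livers, ended the calls of Aldh1b1 (adjusted p = 0.054, 0.0511, 0.0522 and 0.067) and of Aldh6a1 (0.116, 0.113, 0.122 and 0.0682). Aldh6a1 also overlaps Bbof1 on the opposite strand, and Aldh4a1 overlaps Gm21969 on the same strand.

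Of the 5 other aldehyde dehydrogenases, Aldh16a1 was called lower (20% called, against 23.8% of all tested genes). This gene (Entrez 69748, chromosome 7, 45141833 to 45154536) encodes a family member that lacks the catalytic cysteine in mammals. Its level was 82.2, 93.8 and 93.5 CPM in wild-type and 57.9, 63.7 and 69.3 CPM in Mettl3-deficient livers, from 89.8 ± 6.62 to 63.6 ± 5.68 CPM (log2 fold change -0.50 ± 0.15, adjusted p = 0.0434). Aldh16a1 was the called gene nearest the threshold, it overlaps Pih1d1 on the opposite strand, and its call was lost when replicate 2 (adjusted p = 0.141) or 3 (0.136) of the wild type was left out, or replicate 1 (0.171) or 2 (0.0921) of the Mettl3-deficient livers. With library size alone as the scaling its log2 fold change was -0.02. Aldh3b1, which oxidises aldehydes from lipid peroxidation, was just outside the threshold at 2.02, 4 and 4.29 CPM against 6.03, 8.55 and 6.94 CPM (log2 fold change 1.06 ± 0.33, adjusted p = 0.051). Aldh3a2, the fatty aldehyde dehydrogenase, was at 130, 232 and 232 CPM in wild-type livers, and at 356, 149 and 502 CPM in Mettl3-deficient livers, which straddled them (adjusted p = 0.231). Aldh8a1 and Aldh9a1, the latter of carnitine synthesis, had log2 fold changes of -0.22 and -0.05 (adjusted p = 0.595 and 0.863).

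In retinoid transport, Rbp4 (Entrez 19662, chromosome 19, 38116620 to 38125321), the plasma carrier of retinol made by hepatocytes, fell. It was at 3610, 4716 and 4448 CPM in wild-type and 1619, 1404 and 1855 CPM in Mettl3-deficient livers. The groups were far apart relative to their spread, with means of 4258 ± 577 and 1626 ± 226 CPM, 2.62-fold lower (log2 fold change -1.39 ± 0.26, adjusted p = 0.0113). Its call was lost without wild type replicate 2 (adjusted p = 0.0516) or Mettl3-deficient replicate 1 (0.0558). Stra6l, the liver receptor for retinol-binding protein, was at 250, 203 and 152 CPM against 201, 198 and 173 CPM and was not called (adjusted p = 0.825). Lrat, which esterifies retinol for storage and marks stellate cells, was at 11.8, 35.3 and 21.3 CPM against 23.3, 17.4 and 36.1 CPM, with groups that overlapped throughout (log2 fold change 0.17 ± 0.41, adjusted p = 0.794). The 12 stellate cell markers, Lrat among them, summed to 562 to 689 CPM in wild-type and 464 to 823 CPM in Mettl3-deficient livers. Of the 12, 1 was called, Rgs5 (higher), which is 8.33%, against 23.8% of all tested genes. Crabp2, a carrier of retinoic acid to its nuclear receptors, had 2 counts in Mettl3-deficient replicate 3 and 0 in the other 5 libraries.

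Of the carotenoid cleavage enzymes, Bco2 was called lower and Bco1 was not called. Bco2 (Entrez 170752, chromosome 9, 50533087 to 50555214), the mitochondrial enzyme that cuts carotenoids off centre, was at 42.9, 23.9 and 25.9 CPM in wild-type and 8.07, 5.8 and 14.7 CPM in Mettl3-deficient livers. Its mean fell from 30.9 ± 10.4 to 9.52 ± 4.62 CPM, 3.25-fold lower (log2 fold change -1.70 ± 0.38, adjusted p = 0.0181). The log2 ratio of Bco2 was -2.63 among libraries with Y-linked counts and -0.76 among those without, and the call was lost without Mettl3-deficient replicate 1 (adjusted p = 0.0705). Bco2 also overlaps the annotated antisense gene Gm47077. Bco1, which cuts beta-carotene in the middle to give retinaldehyde, was at 7.46, 7.25 and 11.8 CPM against 10.7, 21.5 and 8.54 CPM, with overlapping groups (log2 fold change 0.62, adjusted p = 0.25).

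**Figure D3:**
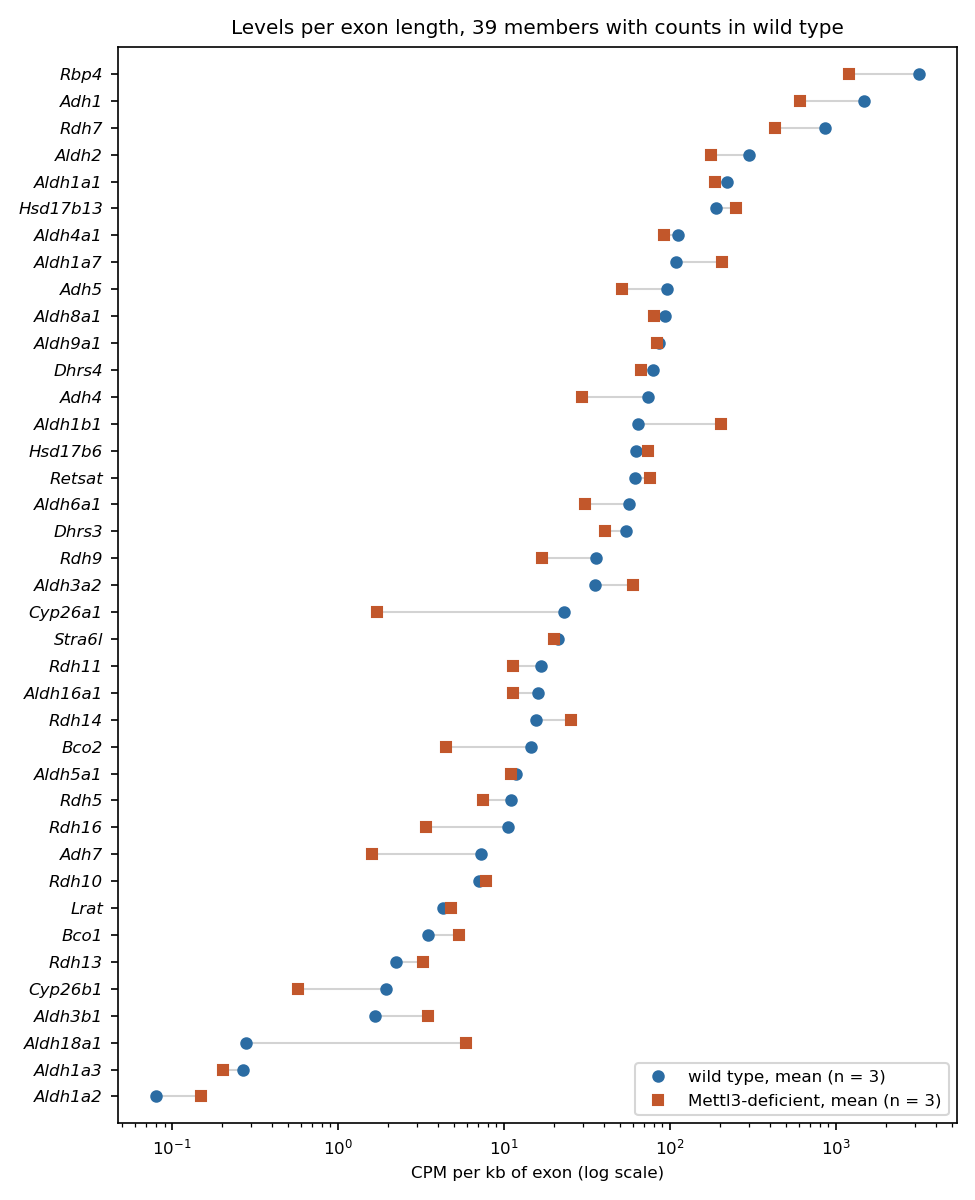
Mean level per exon length (x axis, log scale, CPM per kb of exon) of the 39 genes with counts in wild type, circles for wild type and squares for Mettl3-deficient livers (n = 3 each). Rbp4, Adh1 and Rdh7 were the 3 highest in both groups, and the widest gaps are those of Aldh18a1 and Cyp26a1.

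On the scale of CPM per kb of exon, which allows levels to be compared between genes, Rbp4 was the highest of the 40 genes at 3171 ± 430 in wild-type and 1210 ± 168 in Mettl3-deficient livers. Adh1 followed at 1481 ± 387 and 608 ± 148, and then Rdh7 at 865 ± 31.2 and 431 ± 125. Below them in wild type came Aldh2 at 299 ± 40.5 and Aldh1a1 at 222 ± 42.9, then Hsd17b13 at 190 ± 24.6 and Aldh4a1 at 112 ± 21.2. The SD range of Aldh1a1 overlapped those of Aldh2 and of Hsd17b13, so its order against either is not separated by the spread. Aldh1b1 went from 64.7 ± 30 to 203 ± 39 and Aldh1a7 from 109 ± 12.2 to 206 ± 43.1 per kb, which put both beside Aldh1a1 (187 ± 95.6) and Aldh2 (176 ± 30.4) in Mettl3-deficient livers. Within the alcohol dehydrogenases the wild-type order per kb was Adh1, Adh5 (95.8 ± 5.2), Adh4 (73.8 ± 59) and Adh7 (7.3 ± 0.906), with Adh4 and Adh5 not separated. Aldh18a1 was at 0.278 ± 0.0683 per kb in wild-type livers, above only Aldh1a3, Aldh1a2 and Crabp2, and at 5.94 ± 5.56 in Mettl3-deficient livers. In wild type it was not separated from Aldh1a3 (0.266 ± 0.107).

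The 13 short-chain dehydrogenases and related enzymes had 1 gene called higher and 2 lower, with a median log2 fold change of -0.24 and values from -1.66 to 0.70. The called genes are 23.1% of the 13, near the 23.8% of all tested genes. Rdh9, Rdh16, Rdh7 and Hsd17b6, which act on retinols and steroids, lie together on chromosome 10 between 127776405 and 128007648, and 2 of these 4 were the ones called lower. Rdh16 (Entrez 19683, chromosome 10, 127801090 to 127815846) was at 43.2, 83.8 and 70.8 CPM in wild-type and 25.7, 12 and 25.1 CPM in Mettl3-deficient livers. Wild type replicate 1 was the lowest of its group but above all Mettl3-deficient libraries, and the mean fell from 65.9 ± 20.7 to 20.9 ± 7.74 CPM, 3.15-fold lower (log2 fold change -1.66 ± 0.35, adjusted p = 0.0158). Rdh7 (Entrez 54150, chromosome 10, 127884027 to 127889247) was at 1402, 1506 and 1446 CPM against 729, 511 and 929 CPM. It fell from 1451 ± 52.3 to 723 ± 209 CPM, 2.01-fold lower (log2 fold change -1.01 ± 0.28, adjusted p = 0.0359). Rdh9 was at 31 CPM in wild type replicate 1 and at 164 and 193 CPM in the others, against 51.2, 48.3 and 84.2 CPM (adjusted p = 0.233). Without wild type replicate 1 Rdh9 was called lower (log2 fold change -1.55, adjusted p = 0.0109). Hsd17b6 was at 49.2, 87.6 and 158 CPM against 94.5, 117 and 137 CPM and was not called (adjusted p = 0.671).

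Values of this cluster are uncertain where copies share reads. Rdh9 and Rdh16 were 96.3% identical in coding sequence and shared 35% of their 50-base stretches, while Rdh7 was 85.1% identical to Rdh9 and 86% to Rdh16, with 4.43% and 2.77% shared. Rdh7 shared more with Rdh1 (17.2%) and Hsd17b6 (8.76%), and Rdh9 shared 13.5% with Rdh1 and 10.5% with Hsd17b6. Rdh16 shared 11.2% with Rdh1 and 6.08% with Hsd17b6. Rdh9 and Rdh16 also overlap the annotated same-strand genes Rdh16f1 and Rdh18-ps. The Rdh16 call was lost without wild type replicate 2 (adjusted p = 0.054), and the Rdh7 call without replicate 2 (0.109) or 3 (0.1) of the wild type or replicate 1 (0.118) or 2 (0.0522) of the Mettl3-deficient livers.

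Rdh14 (Entrez 105014, chromosome 12, 10390748 to 10395562), a retinaldehyde reductase, was the gene of this group called higher. It was at 24.8, 22.2 and 22.5 CPM in wild-type and 37.7, 31.9 and 43.6 CPM in Mettl3-deficient livers. The means were 23.2 ± 1.43 and 37.8 ± 5.86 CPM, 1.63-fold higher (log2 fold change 0.70 ± 0.16, adjusted p = 0.0199), and the call was lost without replicate 2 (adjusted p = 0.0774) or 3 (0.0736) of the wild type or Mettl3-deficient replicate 1 (0.0708). Rdh13, a mitochondrial relative, was at 12.1, 16.3 and 15.7 CPM against 19.4, 24.8 and 20.1 CPM, without overlap and not called (log2 fold change 0.54 ± 0.18, adjusted p = 0.0639). Rdh11, which also reduces retinaldehyde, was at 61.2, 56.2 and 57.1 CPM against 54.2, 27.7 and 36 CPM (log2 fold change -0.56 ± 0.24, adjusted p = 0.119), and was called lower without Mettl3-deficient replicate 1 (-0.87, adjusted p = 0.0418). Rdh5, a cis-retinol dehydrogenase, had a log2 fold change of -0.56 (adjusted p = 0.107) and was called lower without wild type replicate 1 (-0.77, adjusted p = 0.0214). Rdh5 also overlaps Bloc1s1 on the same strand. Rdh10, which makes retinaldehyde from retinol, stayed between 26.7 and 33.8 CPM in all 6 libraries (adjusted p = 0.489). Dhrs3, which returns retinaldehyde to retinol, was at 208, 143 and 128 CPM against 103, 59.8 and 196 CPM (adjusted p = 0.481). Dhrs4, a peroxisomal reductase, Retsat, the retinol saturase, and Hsd17b13, a lipid droplet enzyme, had log2 fold changes of -0.24, 0.28 and 0.40 and were not called (adjusted p = 0.51, 0.52 and 0.256).

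In retinoic acid clearance, neither Cyp26a1 nor Cyp26b1 was called by edgeR, and 1 wild-type library carried most of their counts. An unadjusted p under 0.05 was seen in 1 of the 2, Cyp26a1. DESeq2 did not call Cyp26b1 and gave no adjusted p for Cyp26a1. Cyp26a1 (Entrez 13082, chromosome 19, 37697738 to 37701536), the promoter of which holds the direct repeat shown above, was at 12.1, 115 and 8.76 CPM in wild-type and 5.14, 2.48 and 2.53 CPM in Mettl3-deficient livers. All wild-type libraries were above all Mettl3-deficient ones, but wild type replicate 2 was 9.55-fold above the next highest library, and the wild-type mean of 45.4 ± 60.6 CPM had an SD larger than itself. The log2 fold change was -3.75 ± 1.20 (adjusted p = 0.0776). Without wild type replicate 2 it was -1.62 and passed the test (adjusted p = 0.049), and without wild type replicate 1 it was -4.20 (adjusted p = 0.0227). Cyp26b1 was at 0.213, 29 and 2.18 CPM against 3.5, 1.55 and 4.1 CPM. Its groups overlapped (log2 fold change -1.78 ± 1.51, adjusted p = 0.428), and without wild type replicate 2 the sign turned, to 1.35.

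**Figure D4:**
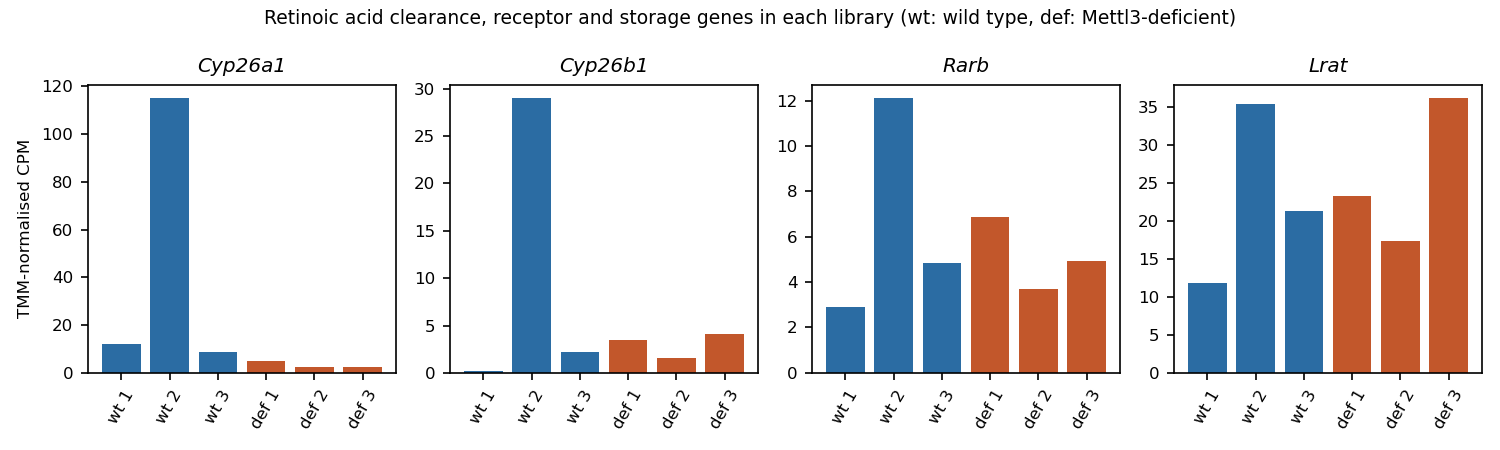
TMM-normalised CPM (y axes, linear from 0, each panel with its own range) of Cyp26a1, Cyp26b1, the receptor Rarb and the storage enzyme Lrat in each library, wt for wild type and def for Mettl3-deficient. Wild type replicate 2 has the highest bar in the panels of Cyp26a1 (115 CPM), Cyp26b1 (29 CPM) and Rarb (12.1 CPM) and not in that of Lrat.

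Genes of the same pathways outside the 40 were read from 3 lists. Of 16 other alcohol and aldehyde enzymes, 12 were tested, with 3 called lower and 0 higher and a median log2 fold change of -0.52. The 3 called are 25% of the 12, against 23.8% of all tested genes called. At an unadjusted p under 0.05, edgeR had 0 higher and 5 lower, and the share of all genes at that threshold was not computed. DESeq2 called 0 higher and 5 lower of the 12, and 2422 higher and 2153 lower of all 14380 genes. Acss2, which turns acetate into acetyl-CoA, was at 326, 287 and 285 CPM against 92.4, 48.7 and 73.6 CPM (log2 fold change -2.07 ± 0.26, adjusted p = 0.00352). Aldh1l1, of folate metabolism, was at 1219, 1782 and 1644 CPM against 597, 383 and 552 CPM (-1.60 ± 0.28, adjusted p = 0.00933), and Cat, the peroxisomal catalase, at 2852, 2209 and 2271 CPM against 1129, 726 and 1368 CPM (-1.19 ± 0.31, adjusted p = 0.0288). For these 3 genes every wild-type library was above every Mettl3-deficient library.

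Among 23 other retinoid handling genes, 13 were tested, with 1 called higher and 3 lower and a median log2 fold change of -0.64. The 4 called are 30.8% of the 13, against 23.8% of all tested genes. Lpl, a lipase that frees retinol from esters in circulating lipoproteins, was at 18.9, 39.1 and 56.7 CPM against 167, 112 and 151 CPM (log2 fold change 1.91 ± 0.38, adjusted p = 0.0133). Rdh16f2, a further copy of the chromosome 10 retinol dehydrogenases, was at 166, 316 and 259 CPM against 48.8, 38.3 and 40.4 CPM (-2.54 ± 0.27, adjusted p = 0.00187), and it was 91.8% identical to Rdh16. Its coding sequence held 7.07% of the 50-base stretches of Rdh9, 3.66% of those of Rdh7 and none of those of Rdh16, and shared 5.18% of its own with Rdh1. Dhrs7, a short-chain dehydrogenase, was at 23.7, 35.8 and 33.1 CPM against 13.6, 11.8 and 16.2 CPM (-1.16 ± 0.21, adjusted p = 0.00934). Pnpla3, a lipid droplet hydrolase that acts on retinyl esters, was at 16.4, 9.34 and 10.3 CPM against 5.36, 4.21 and 1.37 CPM (-1.72 ± 0.48, adjusted p = 0.0361). The genes of this list at 0 counts in all 6 libraries were Rbp2, Crabp1 and Rpe65.

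All 6 retinoid receptor genes were tested, and Rxrb was called lower, at 41.9, 46 and 46 CPM against 24.9, 23.4 and 26.9 CPM (log2 fold change -0.83 ± 0.14, adjusted p = 0.00744). This 1 call is 16.7% of the 6, against 23.8% of all tested genes called. RXR proteins pair with the retinoic acid receptors and with other nuclear receptors. Rarb, a receptor that is itself a retinoic acid target and was singled out after its values were seen, was at 2.91, 12.1 and 4.84 CPM against 6.85, 3.7 and 4.91 CPM and was not called (adjusted p = 0.629).

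Markers of other cell types were read beside these results. The summed level of 8 Kupffer cell and macrophage markers was 99.9 to 405 CPM in wild-type and 352 to 674 CPM in Mettl3-deficient livers, with Cd68 called higher. For 7 endothelial markers it was 144 to 231 and 135 to 172 CPM, with Lyve1 called lower. For 6 cholangiocyte markers it was 83.9 to 108 and 75.9 to 224 CPM, with Sox9 called higher, and for 5 mesothelial markers 10.5 to 30 and 5.4 to 10.1 CPM, with Msln, Upk3b and Gpm6a called lower. None of the markers was at 0 in all 6 libraries. The part of these differences in the results above was not tested.

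**Figure D5:**
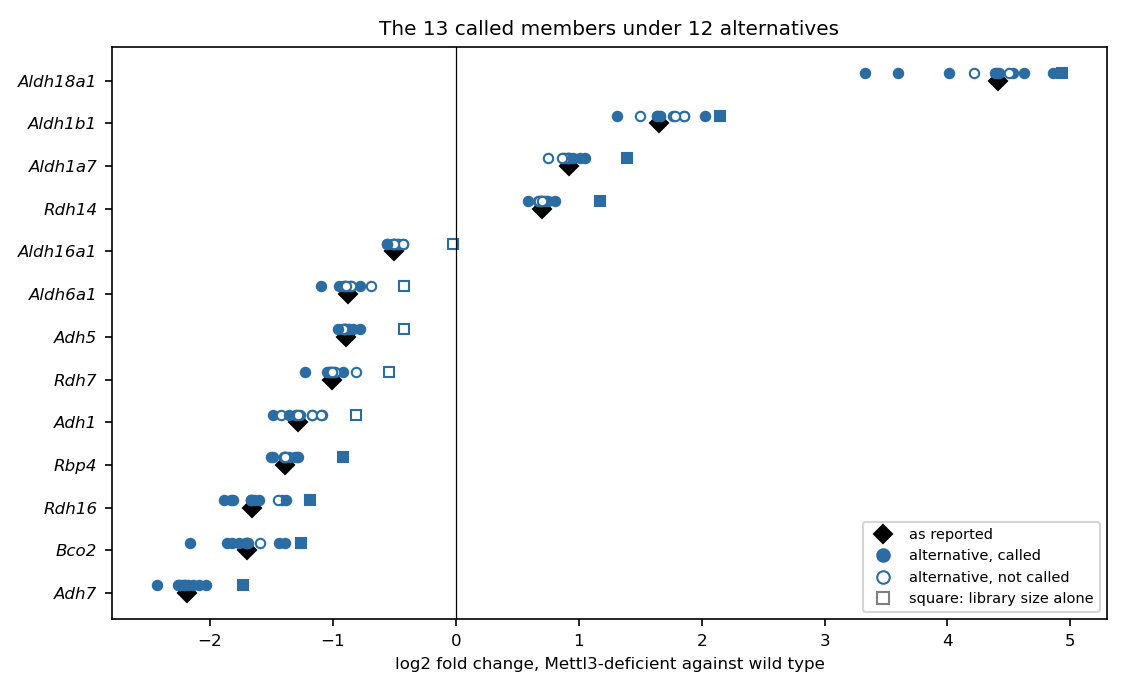
Log2 fold change (x axis) of the 13 called genes as reported (diamonds) and under 12 alternatives (filled where called, open where not, squares for scaling by library size alone). All values keep their sign, and Adh7 is filled throughout while Aldh16a1 was called in 5 of the 12 alternatives.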

How the data were processed

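RNA was measured in 6 mouse livers. Per the labels' protocols, TRIzol RNA was depleted of ribosomal RNA with Ribo-Zero Gold and made into NEBNext Ultra II Directional libraries. Per the submitters' processing notes, HISAT2, featureCounts and mm10 were used, and the sources used here do not give versions, annotation or strand setting. The authors deposited raw counts per Entrez gene, without normalization, and no row lacked a gene.

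Symbols and coordinates came from RefSeq GRCm38.p6, the build of mm10 (25275 of 27179 identifiers matched), and exon lengths from GENCODE. Groups came from the labels. edgeR 4.0.16 in R 4.3.3 was run over the whole table with its robust quasi-likelihood test (two-sided, design of intercept plus group), TMM scaling and filterByExpr (minimum count 10, minimum total 15). The threshold was an adjusted p (Benjamini-Hochberg, over 14380 genes) of 0.05. Adjusted p-values are from edgeR except where DESeq2 is named. Each standard error is the absolute log2 fold change over the square root of F. Promoter letters came from RefSeq. No 2 libraries of the same group agreed within sampling noise, and pairs across groups were not checked.

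The 40 genes, the lists and the tests were chosen with earlier results of these data known. All 40 genes are accounted for, called genes are given in every sample, and of each further list up to 6 called genes are named. The hepatocyte marker Tf was not matched by symbol. The script was tested on simulated data. Alternatives were RLE scaling, library size alone, DESeq2 1.42.0, no filter, the replicate number as a block, a covariate for Y-linked counts (more than 100), and each library left out.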

Additional observations from a re-analysis of the deposited data

How the results depend on the processing

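The 12 alternatives gave 456 values for single genes, of which 373 kept their direction and side of the threshold, 46 lost a call, 17 gained one and 20 turned sign. With library size alone the median of all genes was 0.49 (log2), the 38 genes had 9 called higher and 4 lower with a median of 0.20, and all genes had 4810 higher and 595 lower against 1906 and 1514. Signs then turned, all without a call, for Aldh1a1 (0.19), Aldh1a3 (0.07), Aldh4a1 (0.20), Aldh5a1 (0.36), Aldh8a1 (0.24), Aldh9a1 (0.41), Stra6l (0.40), Dhrs3 (0.02) and Dhrs4 (0.22). Each of these values is below that median. The calls of Adh1 (adjusted p = 0.0516), Adh5 (0.12), Aldh6a1 (0.164), Rdh7 (0.109) and Aldh16a1 (0.923) were lost at this scaling. The cause was not tested.

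Deviations of same-numbered libraries correlated weakly (0.08275, -0.01396 and 0.05818 for numbers 1, 2 and 3). Replicates 1 and 3 of both groups correlated best with their own number, and replicate 2 of each did not. Such values cannot show whether same-numbered libraries shared a batch, and the labels give only the number. With the replicate block, 5 genes were called higher and 4 lower, Cyp26b1 turned to 0.26, and the calls of Adh1 (adjusted p = 0.0653), Adh5 (0.0532), Aldh6a1 (0.0559), Rdh7 (0.0675) and Aldh16a1 (0.0736) were lost. Aldh3b1 was called (0.0459). Over all genes the block gave 1528 higher and 1155 lower, against 1906 and 1514 as reported. With the Y-linked covariate Cyp26b1 was 0.19, and the counts were 5 and 9, with 1741 and 1503 over all genes. DESeq2 called 5 higher and 11 lower, with Adh4 (adjusted p = 0.0366), Aldh2 (0.00258) and Aldh3b1 (0.0128) added, and gave Cyp26a1 no adjusted p. Over all 14380 genes DESeq2 called 2422 higher and 2153 lower. Leaving out 1 library gave 0 to 4 genes called higher, 3 to 13 called lower and medians from -0.47 to -0.09, and 1382 to 3514 calls over all genes. Leave-one-out ranges that crossed 0 were -0.56 to 0.12 for Aldh1a1, -0.51 to 0.0031 for Aldh8a1, -0.13 to 0.06 for Aldh9a1, -2.36 to 1.35 for Cyp26b1, -0.08 to 0.76 for Hsd17b6, -0.17 to 0.63 for Lrat, -0.1 to 0.5 for Retsat and -0.25 to 0.1 for Stra6l. Aldh1a2 and Crabp2 had too few counts at this depth to be tested.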

Other observations

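Wild type replicate 2 was ranked against the other 5 libraries, a view chosen after its values were seen. Among 12652 tested genes with a mean of at least 1 CPM over the other 5 libraries, ranked by the level in wild type replicate 2 over the next highest library, Cyp26a1 was at rank 1 (115 against 12.1 CPM, 9.55-fold) and Cyp26b1 at rank 2 (29 against 4.1 CPM, 7.07-fold). Nnmt, which methylates nicotinamide, was at rank 4 (434 against 200 CPM, 2.17-fold), and Rarb was at rank 14 (12.1 against 6.85 CPM, 1.77-fold). Lrat and Dhrs3, also of the retinoid pathway, were lower in the same ranking, at 2002 (35.3 against 36.1 CPM) and 6949 (143 against 208 CPM). Cyp26c1, the third CYP26 gene, too low to be tested, was at 0.888, 1.59 and 0.222 CPM in wild-type and 0.0496, 0 and 0.152 CPM in Mettl3-deficient livers.

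The median log2 ratio of the tested genes to the wild-type mean was -0.13, -0.82 and -0.07 in Mettl3-deficient replicates 1, 2 and 3. Mettl3-deficient replicate 2 also had the lowest level of its group for Adh1, Adh5, Adh7, Aldh1a1, Aldh2, Rbp4, Rdh7 and Rdh16, the lowest summed hepatocyte markers (45388 CPM) and the highest summed macrophage markers (674 CPM). It was the highest of its group for Aldh18a1 and Aldh1b1. For the other genes called higher, Aldh1a7 (521, 345 and 409 CPM) and Rdh14 (37.7, 31.9 and 43.6 CPM), it was the lowest of its group. The Dhrs9 gene, a retinol dehydrogenase of macrophages, is named here although it was not called (adjusted p = 0.157). It was at 11.6, 19.1 and 4.64 CPM in Mettl3-deficient livers and at 5.97, 0.424 and 0.517 CPM in wild-type livers, with groups that overlapped. Wild type replicate 1 had the highest wild-type level of Dhrs9 but the lowest summed macrophage markers of any library (99.9 CPM). A relation of Dhrs9 to macrophage content was not tested.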
